A study of Mus musculus with 4 samples.

Results

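The genes described here are those of regulated exocytosis: the SNARE proteins that fuse a secretory vesicle with its target membrane, the synaptotagmins that read the calcium signal, and the proteins that prepare or restrain the fusion step. They were chosen by symbol (syntaxins and their binding partners, the SNAP-25 family, VAMPs, synaptotagmins, synaptotagmin-like proteins, complexins, Munc13, RIM and Doc2 proteins, and Nsf). 71 genes with 112 probes met this rule, out of 22911 gene symbols and 56605 gene probes on the array. 1 of the 71, Stxbp3-ps, is a transcribed pseudogene. Syt5 was not matched through the accessions of the array and is not analysed here.

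The data were 4 one-color Agilent arrays of pancreatic islet cells from 60-week-old C57BL/6 mice, which the labels call male. The islets were handpicked and dispersed, and the cells were kept for 24 h ex vivo with either a scrambled peptide (replicates 1 and 2) or MOTS-c (replicates 2 and 3), each at 10 μM. MOTS-c is a short peptide encoded in the mitochondrial 12S rRNA gene, and the comparison asks which transcripts differ between aged islet cells given MOTS-c and those given the control peptide. The 4 animals were littermates with 2 arrays per group, and the labels do not say which animal went to which array.

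An insulin granule fuses when Vamp2 on its surface zips together with Stx1a and Snap25 on the plasma membrane, and Nsf takes the spent complex apart. Granules first have to dock, a step in which the Rab27 effector Sytl4 (granuphilin) takes part, and be primed by Munc13 and RIM proteins. Calcium then triggers fusion through synaptotagmins, of which Syt7 and Syt9 are the best known in beta cells.

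Signals are given as log2 of the processed intensity after quantile normalization, and a difference is the MOTS-c mean minus the scrambled mean on this scale. Each gene was followed through its brightest probe, and a level is compared only with the same probe on the other arrays. 61 of the 71 members were tested, 60 of them well above background on all 4 arrays and Rims1 on 2. Of the 10 others, Cplx3, Cplx4, Doc2b, Rims4, Stx19, Syt12, Syt15, Sytl2 and Sytl3 were well above background on 0 arrays and Syt8 on 1, so no fold change is given for them. Doc2b is a calcium sensor known in beta cells.

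The cells carried the markers of islets. All 8 beta cell markers and all 9 pan-endocrine markers on the list were tested, though the beta cell marker Slc2a2 was close to background. The summed log2 signal of the pan-endocrine markers ranged from 19.85 to 19.9 over the 4 arrays. Against the label, Xist, which is expressed from an inactive X chromosome, was well above background on all 4 arrays, and 7 probes of Uty, Kdm5d, Eif2s3y and Ddx3y on the Y chromosome were so in 0 of 28 combinations of probe and array. Both groups were alike in this. In a bulk sample, fewer cells of a type and less RNA per cell cannot be told apart.

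The group means of the core fusion machinery differed by less than 0.1 log2 units, while single arrays lay farther off. Snap25, for example, read 12.03 and 12.55 with MOTS-c around a scrambled mean of 12.27. Stx1a, Snap25, Vamp2 and Nsf differed by between -0.08 and 0.09, and the smallest unadjusted p of limma among these 4 was 0.51. The synaptotagmins Syt2, Syt3 and Syt16 were lower with MOTS-c at an unadjusted limma p under 0.05, and Syt10, Unc13d and Vamp1 were higher at that level.

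After Benjamini-Hochberg adjustment over all 35087 probes, 0 of the 61 members had an adjusted limma p under 0.05, as did 0 of the 15469 genes tested (0%). Adjusted limma p values of the members ran from 0.474 to 0.997. At an unadjusted p under 0.05, 3 of 61 members were lower (4.92%), against 5.79% of all genes, and 3 were higher (4.92%), against 2.83% of all genes. With 2 arrays per group, an exact two-sided permutation test of 1 gene cannot go below p = 0.33.

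The size of the differences was also close to that of all genes. The MOTS-c and scrambled arrays did not overlap for 11 members that were lower (18%), against 22.7% of all genes, and for 9 that were higher (14.8%), against 19.8%. A difference of at least 1.5-fold was found in 3 members that were lower (4.92%), against 4.21% of all genes, and in 1 that was higher (1.64%), against 1.44%. The median difference of the members was 0.01 on the log2 scale with 32 above 0 and 29 below, and that of all genes was -0.0018. Disregarding sign, the median was 0.11 for the members and 0.14 for all genes.

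**Figure D1:**
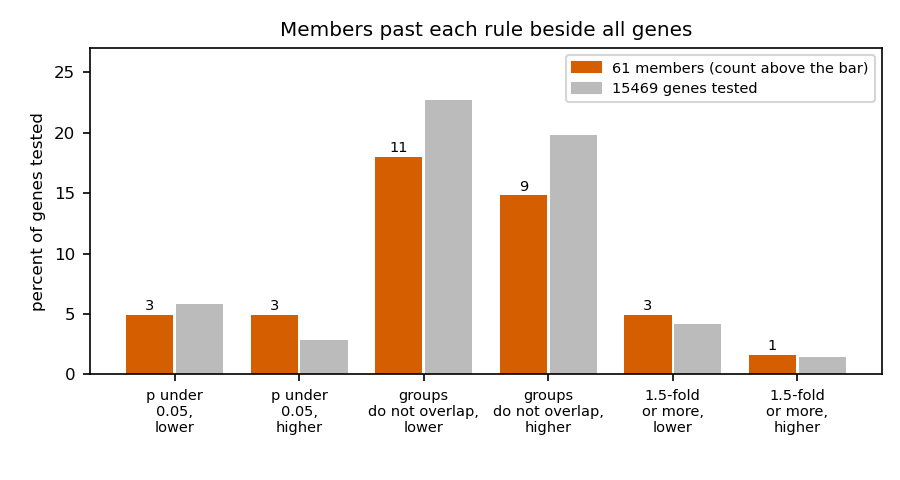
The orange bars give the percent of the 61 tested members past each rule, with the number of members above the bar, and the grey bars the percent of all 15469 genes tested, for a limma p under 0.05, for groups that do not overlap and for a change of at least 1.5-fold. The members' bars lie below the grey bars for both directions of the overlap rule, and the widest excess over all genes, for p under 0.05, higher, rests on 3 members.

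Among the syntaxins, which sit on the target membrane of a fusion step, 14 of 15 were tested, and 10 of those differed by less than 0.1 log2 units. Stx1a, the syntaxin of the insulin granule's fusion site, read 10.30 and 10.38 with the scrambled peptide and 10.50 and 10.36 with MOTS-c. The groups overlapped, and the difference was 0.09 ± 0.13 (SE, n = 2 per group). Stx4a, another plasma membrane syntaxin of beta cells, differed by 0.03 ± 0.16, and Stx3, which takes part in fusion between granules, by -0.09 ± 0.23. The syntaxins of the endoplasmic reticulum, Golgi and endosomes, Stx5a, Stx6, Stx7, Stx8, Stx12, Stx16 and Stx18, had differences from -0.17 for Stx5a to 0.12 for Stx6.

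Stx17, a SNARE of autophagosomes, read 9.68 and 9.18 against 9.69 and 9.81. Scrambled replicate 1 almost reached the MOTS-c arrays, and the limma p of the difference of 0.32 ± 0.21 was 0.188.

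The SNAP-25 family supplies the second part of the target complex, and all 4 members were tested, none with an unadjusted limma p under 0.05. Snap25 read 12.29 and 12.25 with the scrambled peptide and 12.03 and 12.55 with MOTS-c. Snap23, its widely expressed relative, read 11.47 and 11.56 against 11.27 and 12.13. For both genes the scrambled pair lay between the MOTS-c arrays, replicate 2 below and replicate 3 above. Their differences were 0.02 ± 0.21 and 0.18 ± 0.31. Snap29 and Snap47 differed by -0.13 and -0.06.

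The VAMPs are the SNAREs of the vesicle, and Vamp1 was the 1 of 7 with an unadjusted limma p under 0.05. Vamp1, a close relative of Vamp2, read 7.73 and 7.65 with the scrambled peptide and 8.16 and 8.08 with MOTS-c. The replicates of each group were close together and the groups did not overlap. The difference of 0.43 ± 0.12 is 1.35-fold, with a limma p of 0.0191 and an adjusted p of 0.541. Leaving out scrambled replicate 1, scrambled replicate 2 or MOTS-c replicate 2 took the limma p to 0.0669, 0.102 and 0.0734.

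Vamp2 itself read 12.42 and 12.61 against 12.60 and 12.28, with overlap and a difference of -0.08 ± 0.17. Vamp3 and Vamp8, which serve other granule pools and endosomes, differed by 0.10 ± 0.12 and -0.11 ± 0.14. Vamp7, a SNARE of late endosomes and lysosomes, differed by 0.29 ± 0.29, and Vamp4 and Vamp5 by 0.07 and 0.06.

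The SM proteins and other syntaxin binders guide or block the assembly of the complex, and none of the 8 had an unadjusted limma p under 0.05. Stxbp3 (Munc18c), the partner of syntaxin 4, differed by 0.29 ± 0.23, and Stxbp5 (tomosyn), an inhibitor that occupies the place of the VAMP, by 0.28 ± 0.23. Stxbp2, Stxbp6, Stxbp4, Stxbp5l and Stxbp3-ps differed by -0.25, -0.25, 0.18, 0.10 and 0.05. Nsf, the ATPase that recycles SNARE complexes, read 12.84 and 12.86 against 12.95 and 12.84, and its difference was 0.05 ± 0.12.

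Of the Munc13 proteins, which prime docked vesicles, Unc13d had an unadjusted limma p under 0.05. Unc13d (Munc13-4) is known for granule release from immune cells. Its signals were 4.66 and 4.58 with the scrambled peptide and 5.26 and 5.06 with MOTS-c. Both MOTS-c arrays were above both scrambled arrays, and the difference of 0.54 ± 0.14 is 1.45-fold, with a limma p of 0.0131 and an adjusted p of 0.534. It fell to 0.18 with a limma p of 0.109 under the normexp background correction. The p was 0.0729 without scrambled replicate 2 and 0.0549 without MOTS-c replicate 2.

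Because Unc13d is known from leukocytes, their markers are given beside it. Of the 6 on the list, 3 were tested, and Ptprc, Adgre1 and Lyz2 were well above background on 0 arrays. Cd74, well above background on only 2 arrays, read 3.81 and 3.95 with the scrambled peptide and 4.25 and 4.36 with MOTS-c. It may have passed the filter through the MOTS-c arrays alone, so no p is given for its difference of 0.42. Cd68 and Csf1r differed by 0.16 and -0.21. The summed log2 signal of the list was 11.41 and 12.08 with the scrambled peptide and 11.77 and 11.40 with MOTS-c, with overlap. The part of these cells in the Unc13d difference was not tested.

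Unc13a (Munc13-1), Unc13b and Unc13c differed by -0.09, -0.08 and -0.04. The RIM protein Rims2, which ties Rab3 on the granule to the priming machinery, differed by 0.20 ± 0.25, and Rims1 and Rims3 by -0.13 and -0.23. Of the Doc2 proteins, Doc2a differed by -0.20 and Doc2g by 0.07. None of these had an unadjusted limma p under 0.05.

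The complexins clamp and release the assembled complex, and neither tested member had an unadjusted limma p under 0.05. The brightest probe of Cplx2 read 14.97 and 14.86 with the scrambled peptide and 14.68 and 15.13 with MOTS-c. The MOTS-c arrays lay on either side of the scrambled pair, and the difference was -0.01 ± 0.19. A second Cplx2 probe for the same accession differed by -0.17 ± 0.15.

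A further probe is listed by the study under Cplx2. Its accession, of a predicted RNA, had no symbol in the gene table used here, so it is no member by the rule. It read 6.57 and 6.66 against 6.25 and 5.80, below the scrambled arrays on both MOTS-c arrays. Its difference was -0.59 ± 0.19, with a limma p of 0.0299 and an adjusted p of 0.571. Cplx1 differed by -0.24 ± 0.29, with MOTS-c replicate 3 at 8.88 and the other 3 arrays between 9.44 and 9.67.

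Of the families, the synaptotagmins differed most. 4 of the 13 tested had an unadjusted limma p under 0.05, 3 lower and 1 higher. The 48 tested members outside this family had 0 lower and 2 higher. Of all genes, 5.79% were lower and 2.83% higher at that level. The median difference of the synaptotagmins was -0.13 on the log2 scale, and 0.30 disregarding sign, against 0.14 for all genes. The study lists Syt2, Syt3, Syt10 and Syt16 as changed on these same arrays, so their direction here is not independent evidence.

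Syt2, a fast calcium sensor of synapses, read 6.44 and 6.32 with the scrambled peptide and 5.55 and 5.15 with MOTS-c. The gap between the groups was wider than either pair. The difference of -1.03 ± 0.18 is 2.04-fold lower, with a limma p of 0.00293 and an adjusted p of 0.474. Its size depended on the background correction: under normexp it was -0.47 with a limma p of 0.00845. A dimmer second probe of Syt2 read 4.39 and 4.89 against 3.93 and 4.26, also without overlap, with a difference of -0.55 ± 0.23 and a limma p of 0.0655.

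Syt3, a calcium sensor of high affinity, read 10.90 and 10.72 with the scrambled peptide and 10.10 and 9.98 with MOTS-c. Each pair was tight and the groups were well apart. The difference of -0.77 ± 0.14 is 1.71-fold lower, with a limma p of 0.00311 and an adjusted p of 0.474. The second Syt3 probe, the one the study lists, read 10.41 and 10.16 against 9.77 and 9.44. It gave -0.68 ± 0.18, with a limma p of 0.0146 and an adjusted p of 0.534.

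Syt16, a family member without a transmembrane segment that does not bind calcium, read 8.88 and 8.88 with the scrambled peptide and 8.30 and 7.92 with MOTS-c. The scrambled pair was almost identical and both MOTS-c arrays were lower. The difference of -0.77 ± 0.17 is 1.70-fold lower, with a limma p of 0.0077 and an adjusted p of 0.509. Under each of the 10 alternatives that change the values, including the 4 in which 1 array was left out, Syt2, Syt3 and Syt16 stayed lower with a limma p under 0.05.

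Syt10, a calcium sensor of growth factor vesicles in neurons, read 4.71 and 5.04 with the scrambled peptide and 5.48 and 5.69 with MOTS-c. Both MOTS-c arrays were above both scrambled arrays. The difference of 0.71 ± 0.17 is 1.64-fold higher, with a limma p of 0.0112 and an adjusted p of 0.523. It was 0.20 with a limma p of 0.0904 under the normexp correction, and 0.55 with a limma p of 0.0587 without scrambled replicate 1. The second Syt10 probe was well above background on 1 array and was not tested.

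**Figure D2:**
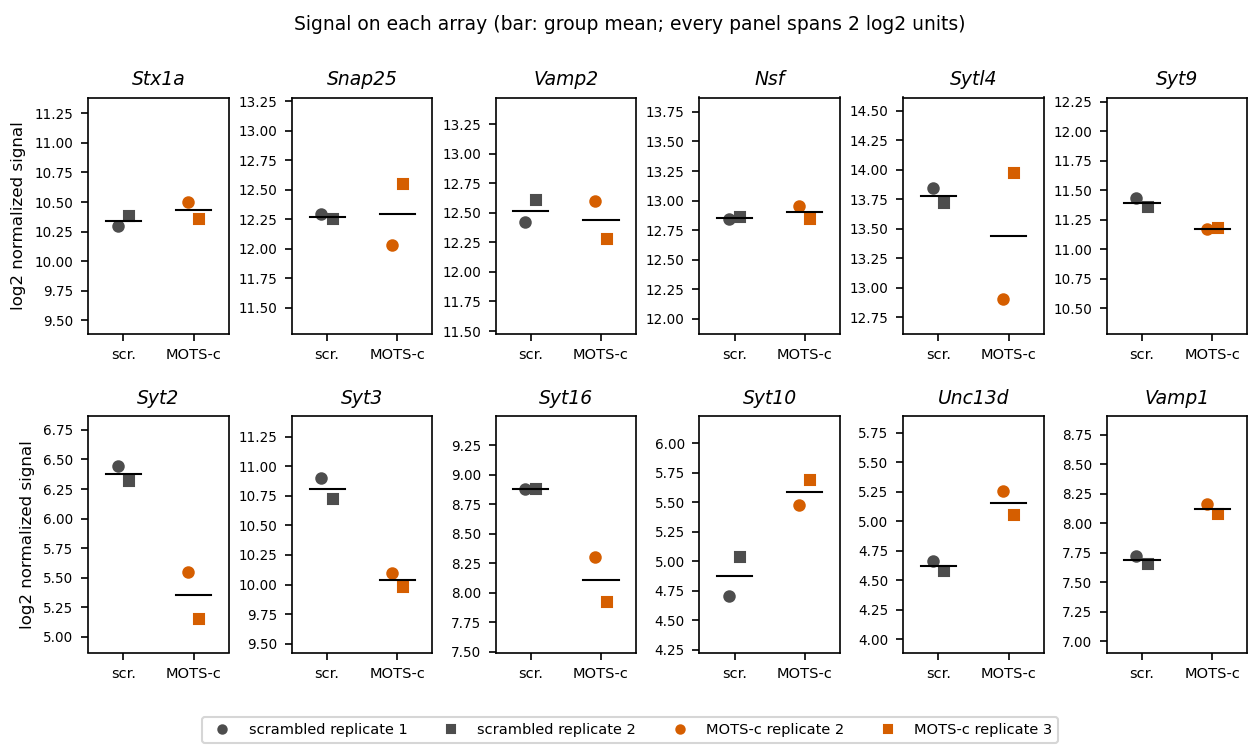
Each panel gives the log2 normalized signal of 1 gene on the 4 arrays, grey for scrambled and orange for MOTS-c, with a bar at the group mean and the same span of log2 units in every panel; the upper row holds 4 core fusion genes, Sytl4 and Syt9, the lower row the 6 members with an unadjusted limma p under 0.05. The group means of the 4 core genes are nearly level, MOTS-c replicate 2 of Sytl4 stands alone at 12.91, and in the lower row the groups do not overlap in any panel.

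The promoters are shown so that the sequences upstream of the lower and the higher genes can be set side by side. They are the 250 bases before the start of the RefSeq transcript on GRCm38.p6, written 5′ to 3′ on the strand of the gene. Capitals mark matches, on either strand, to the letters of 4 motifs: the antioxidant response element core TGACNNNGC, the cAMP response element TGACGTCA, the GC box GGGCGG and the RE1 left arm TTCAGCACC. Syt2 has 2 starts in the table, and Unc13d has no entry.
Syt2, first start, chr1:134646362-134646611, plus strand: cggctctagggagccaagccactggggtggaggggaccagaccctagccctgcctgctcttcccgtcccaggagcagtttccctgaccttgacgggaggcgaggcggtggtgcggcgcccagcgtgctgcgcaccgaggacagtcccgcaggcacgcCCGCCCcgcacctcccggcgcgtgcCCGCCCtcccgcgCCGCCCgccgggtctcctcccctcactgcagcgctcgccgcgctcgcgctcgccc
Syt2, second start, chr1:134709050-134709299, plus strand: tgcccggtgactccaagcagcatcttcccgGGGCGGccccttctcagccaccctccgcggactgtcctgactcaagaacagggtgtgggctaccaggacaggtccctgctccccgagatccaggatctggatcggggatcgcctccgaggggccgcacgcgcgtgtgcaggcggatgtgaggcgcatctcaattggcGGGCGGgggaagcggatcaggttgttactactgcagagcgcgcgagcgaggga
Syt3, chr7:44383876-44384125, plus strand: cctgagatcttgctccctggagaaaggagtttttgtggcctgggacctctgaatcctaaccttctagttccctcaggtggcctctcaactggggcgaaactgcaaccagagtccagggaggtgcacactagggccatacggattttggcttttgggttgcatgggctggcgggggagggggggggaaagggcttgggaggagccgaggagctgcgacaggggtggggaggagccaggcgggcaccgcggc
Syt16, chr12:73997527-73997776, plus strand: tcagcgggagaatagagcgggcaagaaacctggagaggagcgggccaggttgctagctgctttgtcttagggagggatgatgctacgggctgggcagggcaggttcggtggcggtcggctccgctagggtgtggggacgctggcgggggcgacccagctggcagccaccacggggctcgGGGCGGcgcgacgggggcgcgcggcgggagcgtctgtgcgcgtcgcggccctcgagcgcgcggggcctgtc
Syt10, chr15:89841861-89842110, minus strand: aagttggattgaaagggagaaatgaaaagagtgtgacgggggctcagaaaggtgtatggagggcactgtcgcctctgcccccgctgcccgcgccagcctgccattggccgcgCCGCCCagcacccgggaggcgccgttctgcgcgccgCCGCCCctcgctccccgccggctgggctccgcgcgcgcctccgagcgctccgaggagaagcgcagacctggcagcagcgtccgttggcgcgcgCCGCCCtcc
Vamp1, chr6:125215331-125215580, plus strand: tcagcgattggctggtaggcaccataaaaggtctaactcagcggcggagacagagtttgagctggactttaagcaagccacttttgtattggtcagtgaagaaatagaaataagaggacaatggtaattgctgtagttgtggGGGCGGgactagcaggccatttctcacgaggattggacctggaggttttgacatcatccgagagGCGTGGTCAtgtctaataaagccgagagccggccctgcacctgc

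GC boxes were found at both starts of Syt2, at Syt16, at Syt10 and at Vamp1, and Syt3 held no match to any of the 4 motifs. Syt10, which was higher, and Syt16, which was lower, had 72% and 72.8% G or C in this window. Syt2 had 76% and 66.4% at its starts, Syt3 had 62.4% and Vamp1 had 50.4%. The median over all promoters in the table was 52.4%. 52 members had 63 promoters there. 57.1% of these held a GC box, against 32.7% of all 32851 promoters. The share of G or C in the members' promoters as a set was not measured. The antioxidant response element core, the motif that Nrf2 binds, was in 11.1% of the members' promoters and in 10.2% of all, and among the 6 genes it was found at Vamp1. The cAMP response element was in 1.59% against 1.55%, and the RE1 left arm in 0% against 0.301%. A match of letters is a description of the sequence and not a binding site.

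The synaptotagmins best known in beta cells differed less. Syt9 read 11.43 and 11.36 against 11.17 and 11.18. Both pairs were tight and did not overlap, and the difference was -0.22 ± 0.12 with a limma p of 0.128. Syt7 read 7.75 and 7.92 against 7.83 and 7.24, where MOTS-c replicate 3 alone was low, and differed by -0.30 ± 0.23. Syt13, a member without calcium binding that is abundant in islets, differed by -0.13 ± 0.15.

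Syt4 and Syt11, relatives that do not respond to calcium in the usual way, differed by 0.35 ± 0.13 and 0.04 ± 0.13. Syt4 read 11.75 and 11.55 with the scrambled peptide and 12.00 and 12.00 with MOTS-c, so that the groups did not overlap, and its limma p was 0.0537. Syt17 differed by -0.50 ± 0.31 with a limma p of 0.174, and MOTS-c replicate 2 at 5.65 lay among the scrambled values of 5.59 and 5.88 and replicate 3 was at 4.83. Syt1, Syt6 and Syt14 differed by 0.19, 0.07 and -0.09.

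A division of the family by calcium binding, made after the values were seen, did not separate the directions. Of the 7 tested members that bind calcium (Syt1, Syt2, Syt3, Syt6, Syt7, Syt9 and Syt10), 4 had a difference below 0 and 3 above, with 2 lower and 1 higher at an unadjusted limma p under 0.05. Of the 6 others, 4 were below 0 and 2 above, with Syt16 alone past that level. Syt3, Syt6 and Syt10 are among the members of a subgroup linked by disulfide bonds, and the differences of these genes were -0.77, 0.07 and 0.71.

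The synaptotagmin-like proteins bind Rab27 on the granule and had no member with an unadjusted limma p under 0.05. Sytl4, which docks insulin granules, read 13.85 and 13.72 with the scrambled peptide and 12.91 and 13.97 with MOTS-c. MOTS-c replicate 2 was low and replicate 3 was the highest of all 4, and the difference was -0.34 ± 0.37. Without MOTS-c replicate 3 it was -0.87 with a limma p of 0.0061, and without MOTS-c replicate 2 it was 0.18. A second Sytl4 probe had the same order of the MOTS-c arrays, 8.33 and 8.95, against 8.95 and 8.67 on the scrambled arrays. Sytl1 and Sytl5 differed by 0.03 and -0.09.

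The MOTS-c replicates were farther apart from each other in these genes than the scrambled replicates were. 12 of 61 members (19.7%) differed by more than 0.5 log2 units between the MOTS-c arrays, against 12.1% of all genes, and 6 of 61 (9.84%) between the scrambled arrays, against 7.48% of all genes. Snap23, Snap25, Vamp7, Stxbp3, Stxbp5l, Sytl4, Sytl5 and Unc13c were higher on MOTS-c replicate 3 than on replicate 2 by more than this, by 0.52 for Snap25 up to 1.05 for Sytl4. Cplx1, Syt7 and Syt17 were lower on replicate 3, with gaps from -0.59 for Syt7 to -0.82 for Syt17. Without MOTS-c replicate 2, these 3 genes had differences of -0.64, -0.60 and -0.91 from the controls and Snap23, Stxbp3 and Stxbp5l of 0.62, 0.56 and 0.61, each with a limma p under 0.05. Without scrambled replicate 1, the same was true of Stx17 at 0.57. For 15 of the 61 members (24.6%) the difference between the group means was wider than both within-group differences, against 29.5% of all genes.

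**Figure D3:**
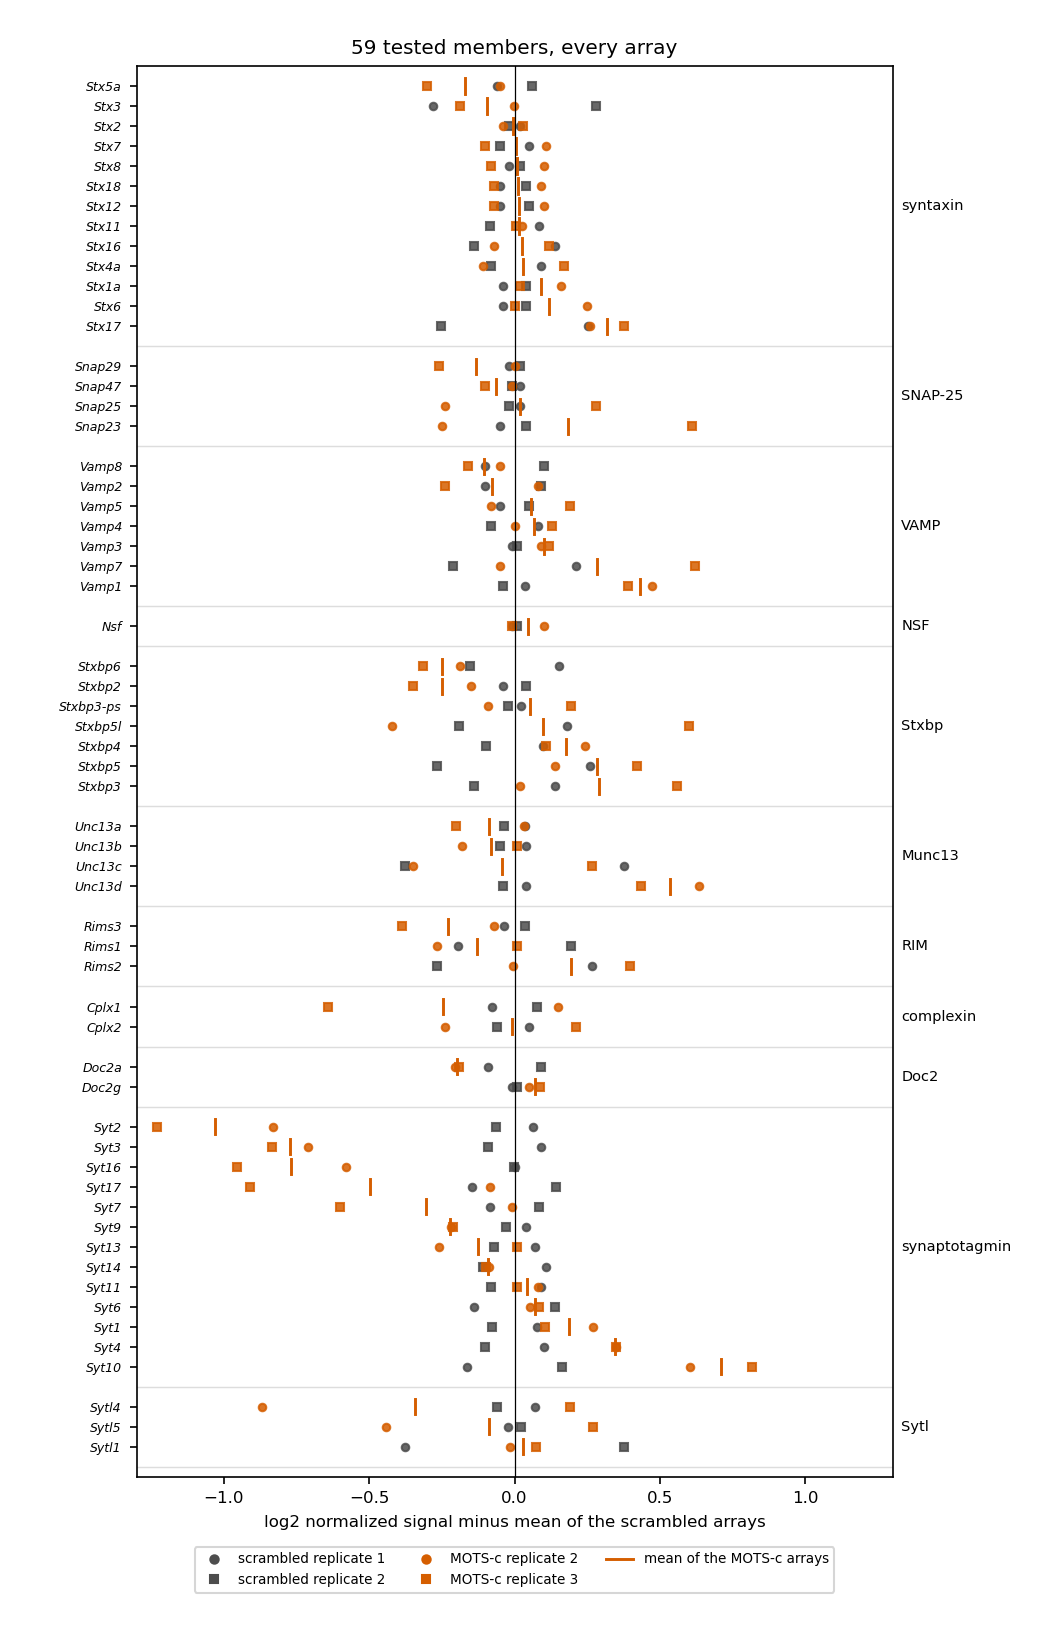
Each row is a tested member, grouped by family, with its log2 normalized signal on each array minus the mean of the scrambled arrays (grey, scrambled; orange, MOTS-c; circles and squares, the replicates; orange line, the MOTS-c mean). Most MOTS-c means lie close to 0, Syt2, Syt3 and Syt16 stand to the left and Syt10, Unc13d and Vamp1 to the right, and for genes such as Sytl4 and Stxbp5l the MOTS-c arrays fall on opposite sides.

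The rest of the fusion pathway, from a list of other genes, mostly stayed near the control. The 12 other SNAREs, which serve the endoplasmic reticulum, Golgi and endosomes, differed by between -0.10 and 0.10, with 0 at an unadjusted limma p under 0.05. Of 27 docking, priming and recycling genes, 26 were tested, with 13 above 0 and 13 below and a median of 0.0012. Rph3al (Noc2), a Rab3 and Rab27 effector of endocrine granules, read 11.97 and 12.16 against 11.40 and 11.54. Both MOTS-c arrays were lower, and the difference was -0.60 ± 0.14 with a limma p of 0.00994 and an adjusted p of 0.516. Exoc7, a subunit of the exocyst tether, differed by -0.41 ± 0.13 with a limma p of 0.0312.

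Markers of the cell types in an islet preparation moved in places beside these differences. Of the beta cell markers, Slc2a2, the glucose transporter GLUT2, was well above background on 3 of the 4 arrays. It read 5.23 and 5.27 against 3.81 and 4.02, a difference of -1.33 with a limma p of 0.000277 and an adjusted p of 0.474. With a probe this close to background, the size of the difference is uncertain. The other 7 beta cell markers had no limma p under 0.05, and the summed log2 signal of the list was 19.73 and 19.78 against 19.72 and 19.72. Of the alpha cell markers, Irx2 was higher by 0.68 with a limma p of 0.0102, Gcg differed by 0.11 and Ttr by -0.27. The summed signal of the alpha list was 15.82 and 15.90 against 15.93 and 15.90.

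Among other cells, the acinar marker Cela1 read 11.77 and 11.90 against 11.23 and 10.92, a difference of -0.76 with a limma p of 0.00649. The summed acinar signal was 11.81 and 11.94 against 11.30 and 10.99, mostly that of Cela1. Ctrb1 was higher on both MOTS-c arrays, by 0.33 with a limma p of 0.121, and Cela2a differed by -0.42. Pnlip and Rbpjl of that list were well above background on 0 arrays. The mesenchymal marker Pdgfra differed by -1.04 with a limma p of 0.0289, and Col1a1, Col3a1, Pdgfrb and Dcn were well above background on 0 arrays. The summed mesenchymal signal was 12.46 and 12.32 against 12.24 and 12.24. No delta cell, duct or endothelial marker had a limma p under 0.05. The part of any of these cell types in the differences of the synaptotagmins, Vamp1 or Rph3al was not tested.

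All 6 members with an unadjusted limma p under 0.05 had groups without overlap, so leaving out 1 array could not turn their direction. Their differences over the 10 alternatives ranged from -1.23 to -0.47 for Syt2, -0.86 to -0.68 for Syt3, -0.96 to -0.58 for Syt16, 0.20 to 0.88 for Syt10, 0.18 to 0.64 for Unc13d and 0.39 to 0.47 for Vamp1.

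**Figure D4:**
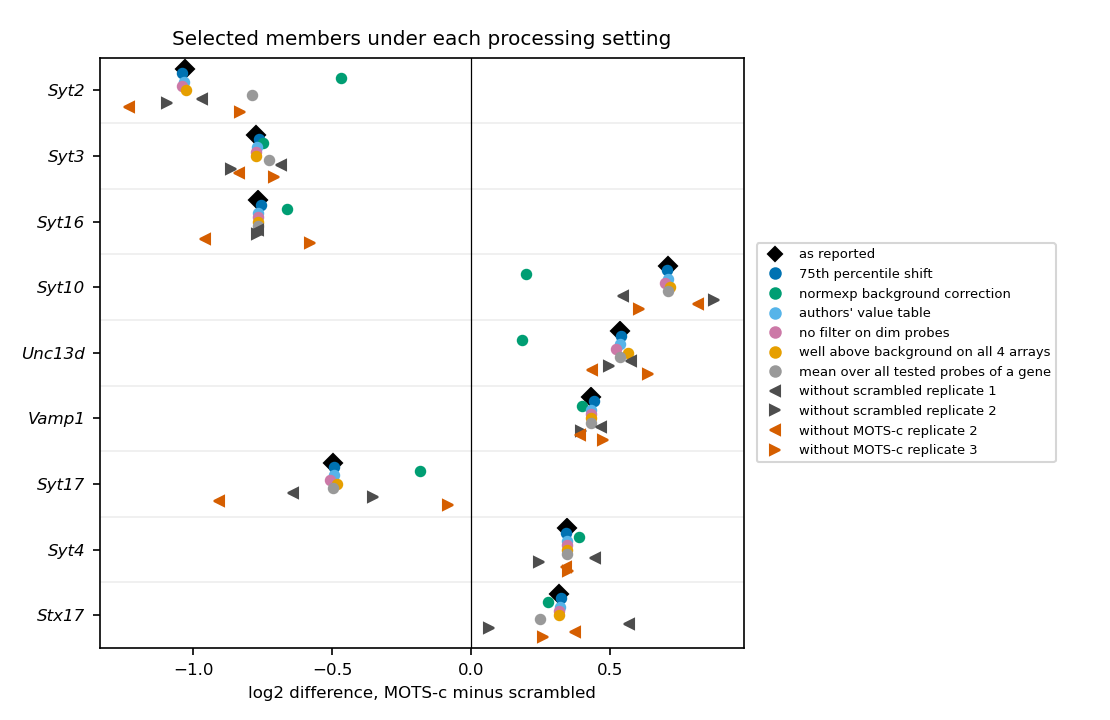
Points give the log2 difference, MOTS-c minus scrambled, of 9 members under each processing setting, with the reported value as a black diamond and triangles for fits without 1 array. Syt2, Syt3 and Syt16 stay left of 0 and Syt10, Unc13d and Vamp1 right of 0 in all settings shown; the normexp correction moves Syt2, Syt10 and Unc13d toward 0, and Syt17 and Stx17 move most when 1 array is left out.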

How the data were processed

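Per the labels and the study's methods, the authors amplified islet cell RNA, labeled it with Cy3, hybridized it to one-color Agilent arrays on 1 slide and read the spots with Feature Extraction. The deposited intensity (gProcessedSignal) of a spot is corrected for background but not for differences between arrays, and the deposited value table holds the same intensities rounded. Control spots (3671 per array) and spots marked as outliers were dropped, intensities were log2 transformed, spots of a probe were averaged, and the 35087 probes that passed on 2 or more arrays as well above background were quantile normalized, as in the methods. The methods also filter on a Flag A that they do not define. limma (version 3.58.1, R 4.3.3) compared MOTS-c with scrambled, with Benjamini-Hochberg adjustment over all probes, on 2 residual and 2.64 prior degrees of freedom. The code was tested on simulated data.

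Symbols came from accessions through the RefSeq gene table of GRCm38.p6 (32994 of 56605 gene probes). A gene was followed through its brightest probe. The genes named are the insulin granule machinery, members with an unadjusted p under 0.05, the 5 largest rises and 5 largest falls, members the study lists, and genes of other lists with p under 0.05; the rest are given by value or count, and some genes that the rule picks are left unreported. The members and lists were chosen with earlier results of these data known.

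The labels do not say that the arrays are separate cultures, so p values measure the spread between these arrays, which may be technical. The number of arrays limits the precision. The alternatives were a 75th percentile shift, normexp (offset 50), the rounded value table, no filter, a filter on all 4 arrays, the mean over a gene's probes, leaving out each array, limma with a trend and the methods' t-test.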

Additional observations from a re-analysis of the deposited data

How the results depend on the processing

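Of the counts, the 75th percentile shift, the rounded value table, the filter on all 4 arrays, the intensity trend and the methods' t-test moved none by over 1.5 times. The normexp correction left 0 members at least 1.5-fold higher, against 0.336% of all genes. Without a filter on dim probes, 71 members were fitted. At p under 0.05, 5 were lower (Rims4 and Syt9 in addition), against 5.45% of all genes. In that setting 5 were at least 1.5-fold lower and 2 at least 1.5-fold higher, against 5.83% and 3.81% of all genes. The mean over a gene's probes gave a median difference of -0.0253. In fits that leave out 1 array, the lone array is assumed to vary like the others. The counts then ran from 3 to 7 lower and from 1 to 4 higher at p under 0.05, with 7 lower without MOTS-c replicate 2 (8.55% of all genes then) and 1 higher without scrambled replicate 2 (1.84% of all genes). At least 1.5-fold, they ran from 3 to 7 lower (5 without scrambled replicate 1 and 7 without MOTS-c replicate 2, where 5.61% and 7.03% of all genes were) and from 0 to 4 higher (0 without scrambled replicate 1, 4 without MOTS-c replicate 2 and 2 without MOTS-c replicate 3, where 3.02%, 4.32% and 1.56% of all genes were). With fewer arrays to overlap, 19 to 24 members were lower and 15 to 24 higher without overlap, against 31.7% to 43.5% and 33.2% to 37% of all genes, and the median ran from -0.0446 without scrambled replicate 2 to 0.00976.

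Of single members, Stx4a turned to -0.0254 under the 75th percentile shift, to -0.0253 under the mean over probes and to -0.0795 on its other probe. Snap25 turned to -0.0193 and Stx3 to 0.0188 under normexp. Nsf turned to -0.0582 under the mean over probes, and to -0.164 and -0.0580 on its other probes. Leaving out 1 array gave ranges through 0 for Cplx1 (-0.64 to 0.15), Cplx2 (-0.23 to 0.22), Nsf (-0.00732 to 0.10), Rims2 (-0.0694 to 0.46), Snap23 (-0.25 to 0.62), Snap25 (-0.24 to 0.28), Stx3 (-0.37 to 0.18), Stx4a (-0.11 to 0.17), Syt11 (-0.0446 to 0.13), Syt13 (-0.26 to 0.00976), Sytl4 (-0.87 to 0.18), Unc13a (-0.20 to 0.0308) and Vamp2 (-0.24 to 0.0831). The causes were not tested. The methods' t-test called 3 members lower (Syt2, Syt3 and Syt9) and 3 higher (Unc13d, Vamp1 and Vamp3) at its threshold of 0.05. Syt10 and Syt16 were not among them, and 0 members passed after Benjamini-Hochberg adjustment. Of all genes, this t-test called 4.35% lower and 3.52% higher at 0.05. A fit of limma with a trend left Unc13d at a p of 0.0835. Of the values of single members under an alternative, 330 kept their direction and side of the threshold, 18 gained it, 12 lost it and 25 turned.

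No paired analysis was possible because the groups share only 1 replicate number. With 1 slide, there was no slide block to fit. The signal over background limits the 10 members that were not tested.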
